A study of Mus musculus with 9 samples.

Results

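The genes described here were the receptors and ligands of the epidermal growth factor (EGF) receptor family. They were chosen by name: the 4 receptors Egfr, Erbb2, Erbb3 and Erbb4, and the 6 ligands Areg, Ereg, Hbegf, Tgfa, Btc and Epgn. These 10 genes were all found among the 23332 gene rows of the deposited tables. Expression was measured by RNAseq as FPKM, fragments normalised to the length of the transcript and to the depth of the library, so levels of different genes are given per length. A row was tested when it reached 1 FPKM in at least 3 samples. That left 11339 rows, and 5 of the 10 family members: Egfr, Erbb2, Erbb3, Ereg and Hbegf.

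The cells were FVB MOE cells, a murine oviductal epithelial line of the FVB strain that is a single clone of secretory cells. All 9 samples were kept for 48 h without hormone, in phenol red-free medium with charcoal-stripped serum, and then treated for 24 h. The 3 conditions of 3 samples each were: DMSO at 0.1%, the solvent control; 1 nM E2 (17-beta-estradiol); and 100 nM 4OHT (4-hydroxytamoxifen, a selective estrogen receptor modulator given in DMSO). The maintenance medium held an epithelial growth factor, insulin and estradiol, none of which is among the listed ingredients of the stripped medium. The labels number the samples of each condition from 1 to 3 and do not say whether they were separate cultures, so p-values measure the spread between these samples, which may be technical.

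The EGF receptor family consists of cell-surface tyrosine kinases that work as dimers. Ligands are made as membrane-anchored precursors, and metalloproteases release them so that they can act on the same cell or on its neighbours. ErbB2 has no known ligand of its own and serves as a partner, and ErbB3 has little kinase activity and signals through its partners. In epithelia the family is known for driving proliferation, migration and repair, and in estrogen target tissues several of its ligands are known to respond to estrogen.

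The depth, estimated from the steps between the values of the weakest genes, was about 35.6 to 51.0 M reads per sample. The 4 secretory oviductal markers summed to 142 to 202 FPKM with DMSO, 159 to 208 with E2 and 140 to 198 with 4OHT. Pax8, the highest, averaged 124 FPKM. Wt1 lay at 26.33 to 45.35 FPKM, Esr1 at 5.25 to 16.3 and Ovgp1 at 1.44 to 2.61. With E2 Pax8 and Esr1 were higher and Ovgp1 lower than with DMSO in all 3 pairs. Krt18, an epithelial keratin, averaged 584 FPKM. Epcam (0 to 0.138 FPKM) and Cdh1 (0.211 to 0.422 FPKM), which define most epithelia, were near 0. Of the 5 ciliated cell markers 3 had rows, and Foxj1, the highest, averaged 13.7 FPKM. Their sum was 17.9 to 20.6 FPKM with DMSO, 13.6 to 17.7 with E2 and 18.3 to 20.5 with 4OHT. The genes differed in direction. Foxj1 averaged 14.95 FPKM with DMSO and 11.21 with E2, and Ccdc39 1.45 and 1.21. Rsph1 went the other way, at 3.095 and 3.675 FPKM, and was higher with E2 in 3 of 3 pairs. The summed epithelial list, mostly keratins, was 1310 to 1450 FPKM with DMSO, 2170 to 2440 with E2 and 1330 to 1570 with 4OHT. Of the other lists, 1 of 5 stromal genes averaged at least 1 FPKM (Col1a1, 3.52), and Thy1 was listed at 0 in every sample. Of 4 smooth muscle genes 1 averaged at least 1 FPKM (Cnn1). Of the 4 immune genes 3 had rows, and 1 averaged at least 1 FPKM (Cd68, 3.69), with Cd3e listed at 0. Of 4 endothelial genes 0 averaged at least 1 FPKM. The stromal, smooth muscle, immune and endothelial sums lay at 1.92 to 6.85, 14.8 to 37.3, 3.97 to 4.01 and 0.638 to 0.837 FPKM with DMSO, in that order. With E2 they lay at 2.21 to 4.65, 10.5 to 32.4, 3.54 to 3.83 and 1.18 to 1.42 FPKM. With 4OHT they lay at 2.03 to 5.33, 17.6 to 35.8, 3.02 to 3.71 and 0.722 to 0.87 FPKM. Most of the endothelial sum was Kdr, which averaged 0.599 FPKM with DMSO and 1.17 with E2 and was higher with E2 in 3 of 3 pairs. Pecam1, Cdh5 and Tek reached at most 0.0783, 0.1002 and 0.0201 FPKM in any sample. Pgr, the progesterone receptor gene that E2 is known to raise, averaged 4.03 ± 4.80 FPKM (SD, n = 3) with DMSO and 25.1 ± 11.6 with E2, a log2 fold change of 2.70 (limma adjusted p = 0.212, and 0.00253 when samples of the same number were compared with each other). Pgr reached 9.58, 1.36 and 1.16 FPKM in DMSO replicates 1 to 3, and 9.67, 3.67 and 2.39 with 4OHT. Greb1, also checked as a gene raised by E2, reached 14.3, 2.58 and 2.30 FPKM with DMSO. Its log2 fold change with E2 was 2.00 (limma adjusted p = 0.357, and 0.00525 with the same pairing). Neither gene passed without that pairing. Esr1 was at 12.36, 5.979 and 5.995 FPKM with DMSO. Why replicate 1 was higher was not tested. The part of other cell types and of depth in the results was not tested.

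Of the ligand genes 4 lie side by side on chromosome 5. Epgn, Ereg, Areg and Btc occupy 376 kb there (GRCm38, GENCODE M21), and they are the 4 protein-coding genes of that interval. Epgn spans chr5:91027464-91035215, Ereg chr5:91074622-91093646 and Areg chr5:91139599-91148432, all on the + strand, and Btc chr5:91357261-91402994 on the - strand. Of the others, Egfr lies at chr11:16752203-16918158 (+), Erbb2 at chr11:98412470-98437716 (+), Erbb3 at chr10:128567523-128589652 (-), Erbb4 at chr1:68032186-69108059 (-) and Tgfa at chr6:86195223-86275719 (+).

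Promoter sequences are shown for Egfr, the receptor whose samples did not overlap between the 3 conditions, and for Areg and Btc, ligands of the chromosome 5 group with different promoter letters. Each runs from 250 bases before to 50 bases after the start site (RefSeq, GRCm38.p6), 5′ to 3′ on the gene's own strand. Capitals mark the motifs found on either strand: GGTCA, 1 arm of the estrogen response element; the cAMP response element TGACGTCA; the GC box GGGCGG; and the TATA box TATAAA. The windows are chr11:16751953-16752252 (+) for Egfr, chr5:91139349-91139648 (+) for Areg and chr5:91402945-91403244 (-) for Btc.
Egfr: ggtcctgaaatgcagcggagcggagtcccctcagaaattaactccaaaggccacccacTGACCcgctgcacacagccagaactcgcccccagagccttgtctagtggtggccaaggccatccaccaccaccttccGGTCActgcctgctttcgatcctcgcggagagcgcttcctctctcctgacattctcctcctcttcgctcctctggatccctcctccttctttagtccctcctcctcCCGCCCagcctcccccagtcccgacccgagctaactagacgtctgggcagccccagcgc
Areg: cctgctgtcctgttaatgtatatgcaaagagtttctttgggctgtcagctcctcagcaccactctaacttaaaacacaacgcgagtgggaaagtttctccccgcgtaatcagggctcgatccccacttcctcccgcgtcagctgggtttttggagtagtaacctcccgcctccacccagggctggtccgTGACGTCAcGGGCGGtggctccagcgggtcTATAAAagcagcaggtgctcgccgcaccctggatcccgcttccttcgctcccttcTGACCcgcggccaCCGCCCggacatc
Btc: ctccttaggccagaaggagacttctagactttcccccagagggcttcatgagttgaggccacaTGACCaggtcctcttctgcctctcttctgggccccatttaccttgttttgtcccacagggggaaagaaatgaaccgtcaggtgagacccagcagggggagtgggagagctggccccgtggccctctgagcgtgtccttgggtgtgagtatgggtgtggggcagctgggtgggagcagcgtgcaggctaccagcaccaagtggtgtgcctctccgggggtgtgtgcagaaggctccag
The Egfr window held GGTCA at -192 and -115 from the start site and a GC box at -9, with no TATA box. The Areg window held the cAMP response element at -61, GC boxes at -52 and 37, a TATA box at -31 and GGTCA at 24. The Btc window held GGTCA at -187 alone. Of 32851 promoter windows of this length, 40.5% held GGTCA, 35.7% the GC box, 13.6% the TATA box and 1.79% the cAMP response element. The full estrogen response element, GGTCA followed by TGACC with 3 bases between, was in 0.07% of the windows and in none of the 7 member windows searched. The AP-1 letters TGANTCA, present in 7.81% of windows, were not in these 3. A match of letters is a description of the sequence and says nothing of binding.

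Egfr, which encodes the receptor for EGF itself, was the receptor with the highest level. It reached 34.0, 34.7 and 35.0 FPKM in the DMSO samples, 36.2, 39.0 and 36.3 FPKM in the E2 samples and 31.2, 33.4 and 33.8 FPKM in the 4OHT samples. In these bulk samples fewer cells of a type and less RNA per cell cannot be told apart. The 3 conditions did not overlap: every E2 sample was above every DMSO sample, and every 4OHT sample below. The gap to 4OHT was narrow, 33.96 FPKM in DMSO replicate 1 against 33.85 in 4OHT replicate 3. Neither E2 nor 4OHT differed from DMSO past the test, as given below. Erbb2, the receptor without a ligand, lay between 9.57 and 10.96 FPKM in all 9 samples. Erbb3 was lower again, at 1.36 to 1.89 FPKM. Erbb4, the receptor for neuregulins that is most abundant in heart and brain, was listed at 0 in all 9 samples. A listed 0 may be a failed estimate, since 245 of the rows tested had an exact 0 in some sample. Of the summed FPKM of the receptors Egfr made up 71.2 to 76.1%, Erbb2 20.2 to 24.8% and Erbb3 2.94 to 4.0%.

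Hbegf, the heparin-binding ligand of EGFR and ErbB4, dominated the 6 ligands and made up 90.7 to 95.6% of their summed FPKM. Its level was 21.2, 40.4 and 35.8 FPKM with DMSO, 22.9, 35.2 and 36.4 FPKM with E2 and 25.5, 44.6 and 37.9 FPKM with 4OHT. The conditions overlapped, and replicate 1 was the lowest sample of each. The other ligands were near or under 1 FPKM. Ereg (epiregulin), a ligand of EGFR and ErbB4, reached 0.484, 1.91 and 0.960 FPKM with DMSO, 0.303, 1.01 and 0.702 FPKM with E2 and 0.495, 1.46 and 1.06 FPKM with 4OHT. Areg (amphiregulin), a ligand of EGFR, reached 0.448, 1.06 and 0.385 FPKM with DMSO, 0.318, 0.599 and 0.332 FPKM with E2 and 0.211, 0.848 and 0.367 FPKM with 4OHT. The ranges of both genes overlapped between all conditions. Btc (betacellulin) lay between 0.292 and 0.804 FPKM. Epgn (epigen) lay between 0.0763 and 0.349 FPKM, and Tgfa, the ligand first found in transformed cells, between 0.0283 and 0.117 FPKM.

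**Figure D1:**
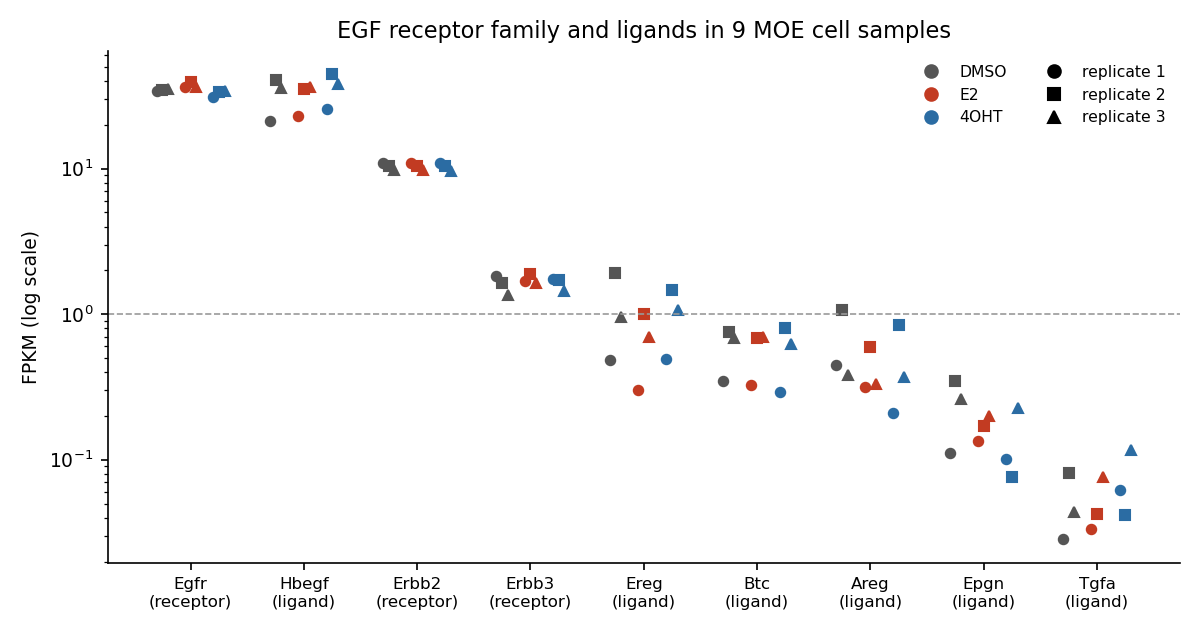
FPKM on a log axis of the 9 family members that were above 0 (Erbb4 was listed at 0), 1 point per sample, with colour for condition and shape for replicate number; the dashed line marks 1 FPKM. Egfr and Hbegf share the top of the range with overlapping values, Erbb2 follows near 10.35 FPKM, and most ligands sit near or under 1 FPKM.

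Ordered by mean over the 9 samples, Egfr (34.9 FPKM) stood beside Hbegf (33.3 FPKM). Their samples overlapped, and Egfr was the higher of the pair in 4 of 9 samples. Erbb2 (10.3 FPKM) and then Erbb3 (1.66 FPKM) followed, each below the gene before it in 9 of 9 samples with no overlap. From Erbb3 downwards the neighbours Ereg, Btc, Areg, Epgn and Tgfa overlapped in range, and Areg was below Btc in 6 of 9 samples. The values rest on about 12155 to 18063 reads per sample for Egfr, 2408 to 5960 for Hbegf, 1850 to 2684 for Erbb2, 45 to 403 for Ereg and 10 to 66 for Areg, all approximate. The lowest ligands rest on about 5 to 31 reads (Epgn) and 6 to 21 reads (Tgfa), and were not tested.

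The comparison of E2 with DMSO addresses which genes answer to estrogen. None of the 5 tested members passed an adjusted p of 0.05 in limma, beside 0.512% of all rows called (58 of 11339). None had an unadjusted limma p under 0.05, while 1237 of the 11339 rows did. With samples of the same number compared with each other (the replicate block), none passed, beside 15% of all rows called. In that fit 2 members, Egfr and Ereg, had an unadjusted limma p under 0.05, as did 3731 of the 11339 rows. The mean of Egfr was 34.5 ± 0.539 FPKM with DMSO and 37.2 ± 1.61 FPKM with E2 (SD, n = 3), a difference of 7.67%. Its log2 fold change of FPKM + 1 was 0.10 (SE 0.050, limma adjusted p = 0.520). With the replicate block the SE was 0.035 and the limma adjusted p 0.103. In the pairs of replicates 1, 2 and 3 Egfr was 6.73%, 12.7% and 3.65% higher with E2. In all rows tested, 28.1% were higher with E2 in all 3 pairs, and 9.14% were higher with no overlap of the groups.

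Ereg was the member with the largest difference between E2 and DMSO among those tested, and its direction was lower. It reached the 1 FPKM needed for testing in 4 of 9 samples, those of replicate 2 and 4OHT replicate 3. The means were 1.12 ± 0.727 FPKM with DMSO and 0.671 ± 0.354 FPKM with E2 (SD, n = 3), a log2 fold change of -0.31 (SE 0.29, 95% interval -0.97 to 0.36, limma adjusted p = 0.723). The pairs differed by -37.3%, -47.3% and -26.9%. With the replicate block the SE was 0.084, the interval -0.51 to -0.11 and the adjusted p 0.0583, and 15% of all rows were called in that fit. The call depended on the setting: the adjusted p with the block was 0.0390 when exact zeros of other genes were taken as missing, and 0.0383 with a pseudocount of 0.1. Leaving out a sample moved the log2 fold change of Ereg between -0.54 (without DMSO replicate 1) and -0.05 (without DMSO replicate 2), with -0.45 without E2 replicate 2 and -0.14 without E2 replicate 1. With the block it stayed between -0.37 and -0.20, the latter without DMSO replicate 2, and passed in 0 of 9 fits. Areg, its neighbour on chromosome 5, was too low to be tested and also lay lower with E2 in all 3 pairs, by -29.0%, -43.5% and -13.8%. Lower in all 3 pairs held for 24.3% of all rows tested. With no filter on low values and the replicate block Areg had a log2 fold change of -0.19 and a limma adjusted p of 0.207. Areg was not lower with E2 alone. With 4OHT it lay below DMSO in all 3 pairs, by -52.8%, -20.1% and -4.55%, an order that held for 15.6% of all rows tested. Between E2 and 4OHT its pairs were mixed, at 50.5%, -29.3% and -9.7%.

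**Figure D2:**
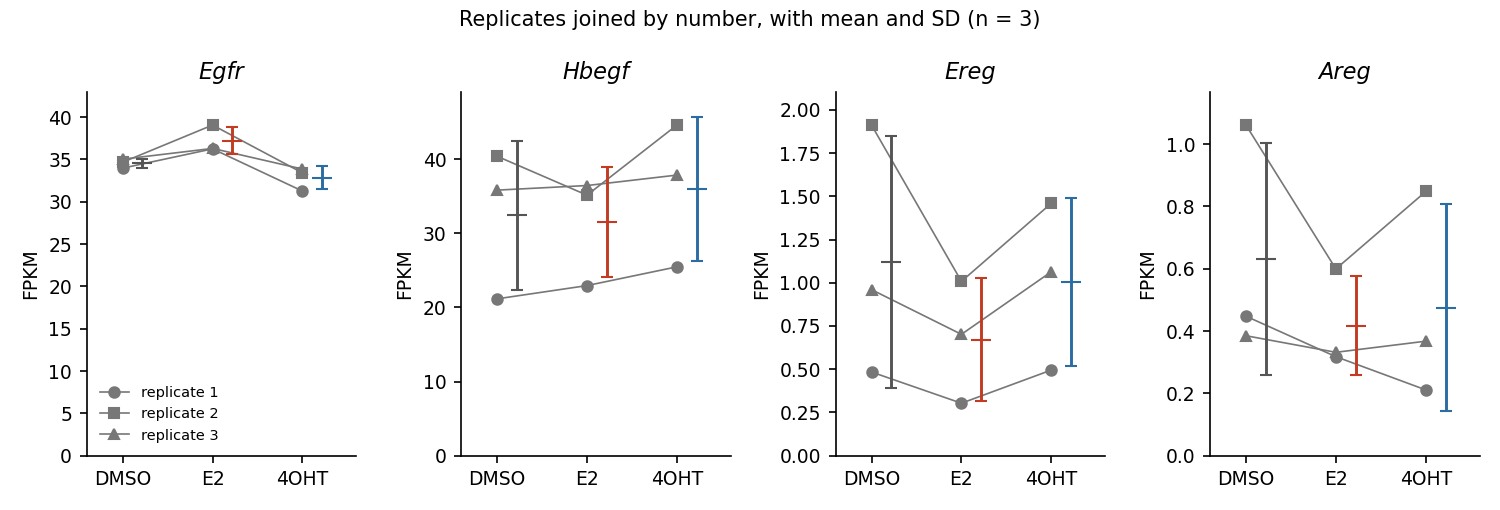
FPKM (vertical axis from 0) of Egfr, Hbegf, Ereg and Areg with DMSO, E2 and 4OHT, each line joining the 3 samples of 1 replicate number, with the mean and SD (n = 3) of each condition beside the points. The 3 lines of Egfr are highest at E2 and lowest at 4OHT, all lines of Ereg and Areg are lower at E2 than at DMSO, and replicate 1 of Hbegf and Ereg lies below the others.

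Erbb2, Erbb3 and Hbegf gave no difference between E2 and DMSO past the test. The log2 fold change of Erbb2 was -0.01, with a 95% interval from -0.16 to 0.15 that the replicate block narrowed to -0.07 to 0.06. Erbb2 was the member whose interval was narrowest with the block. Erbb3 had a log2 fold change of 0.08 (interval -0.12 to 0.28) and was higher with E2 in 2 of 3 pairs. Hbegf had -0.02, with an interval of -0.71 to 0.67 that became -0.18 to 0.14 with the block.

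The comparison of 4OHT with DMSO addresses whether the modulator acts on these cells. No member passed the test, with or without the replicate block, and 0% of all rows were called (limma). None of the members had an unadjusted limma p under 0.05 in either fit. Of the 11339 rows, 313 had one without the block and 1480 with it. With the block and exact zeros taken as missing, 22 rows were called, but no member. The study, by Cuffdiff at an FDR of 0.05, called few genes in this comparison, among them Csf2 (higher) and Dhrs9 (lower). Egfr averaged 32.8 ± 1.39 FPKM with 4OHT (SD, n = 3), a difference of -4.96% from DMSO and a log2 fold change of -0.07 (limma adjusted p = 1.00, with the block 0.418). The pairs of Egfr differed by -7.97%, -3.64% and -3.34%. In all rows tested 3.57% lay below DMSO with no overlap. Hbegf averaged 36.0 ± 9.70 FPKM with 4OHT against 32.5 ± 10.1 FPKM with DMSO, and was higher by 20.4%, 10.4% and 5.69% in the pairs. Its log2 fold change of 0.16 did not pass (limma adjusted p = 1.00, with the block 0.386). Higher in all 3 pairs held for 30.2% of rows.

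E2 and 4OHT were also compared with each other, and both are set against the same DMSO samples above. Egfr was the member that stood apart. Its log2 fold change of E2 over 4OHT was 0.18 (SE 0.050, 95% interval 0.06 to 0.29), a difference of 13.3% between the means. Without the block it did not pass (limma adjusted p = 0.304, beside 0.159% of all rows called), although it was the 1 member with an unadjusted p under 0.05, as were 1307 of all 11339 rows. With the replicate block Egfr was higher with E2 and passed (SE 0.035, interval 0.09 to 0.26, limma adjusted p = 0.0278), and 16.2% of all rows were called in that fit, 8.63% as higher with E2. E2 exceeded 4OHT by 16.0%, 16.9% and 7.23% in the pairs, and 8.4% of all rows lay above 4OHT with no overlap. Higher in all 3 pairs held for 24.3% of rows. Leaving out each of the 9 samples in turn, with the block, kept the log2 fold change between 0.15 and 0.21, and the adjusted p lay between 0.0382 and 0.128, under 0.05 in 4 of the 9 fits. It was above 0.05 without E2 replicate 1 (0.0678), E2 replicate 2 (0.0757), 4OHT replicate 1 (0.128), 4OHT replicate 2 (0.110) or DMSO replicate 3 (0.0625), by limma adjusted p. E2 above DMSO above 4OHT with no overlap in either step, as Egfr showed, held for 11 of 11339 rows (0.097%), and the reverse order held for 13. Taken within pairs, which Egfr also met, E2 above DMSO above 4OHT in all 3 pairs held for 252 rows (2.22%).

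Ereg and Hbegf lay lower with E2 than with 4OHT in all 3 pairs, a pattern of 30.9% of all rows. Ereg differed by -38.8%, -30.9% and -34.0%, with a log2 fold change of -0.26 (limma adjusted p = 0.708, with the block 0.0837). Hbegf differed by -9.93%, -21.2% and -3.72%, with a log2 fold change of -0.18 (limma adjusted p = 0.818, with the block 0.112). Erbb2 (0.01) and Erbb3 (0.05) did not pass either.

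For several members the replicate number moved the level more than the treatment did. Every replicate 1 sample was below every sample of replicates 2 and 3 for Hbegf (at most 25.5 against at least 35.2 FPKM), Ereg (at most 0.495 against at least 0.702 FPKM) and Btc (at most 0.348 against at least 0.626 FPKM). Of all rows tested 10.0% showed this order. Replicate 2 exceeded replicate 1 of the same condition by ratios of 1.91, 1.53 and 1.75 for Hbegf and of 3.95, 3.32 and 2.95 for Ereg, with DMSO, E2 and 4OHT in turn. In Areg these ratios were 2.37, 1.89 and 4.02. Erbb2 ran the other way, highest in replicate 1 and lowest in replicate 3 of each condition. Of the sum of squares of log2(FPKM + 1) over the 9 samples, condition took 75.2% and replicate number 14.6% for Egfr, against 1.56% and 97.6% for Erbb2, 5.19% and 91.5% for Hbegf, 14.8% and 81% for Ereg and 14.2% and 62.9% for Erbb3. The medians over all rows tested were 26.5% for condition and 50.7% for replicate number. What the replicate number stands for is not stated in the labels, and its part in these levels was not tested.

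**Figure D3:**
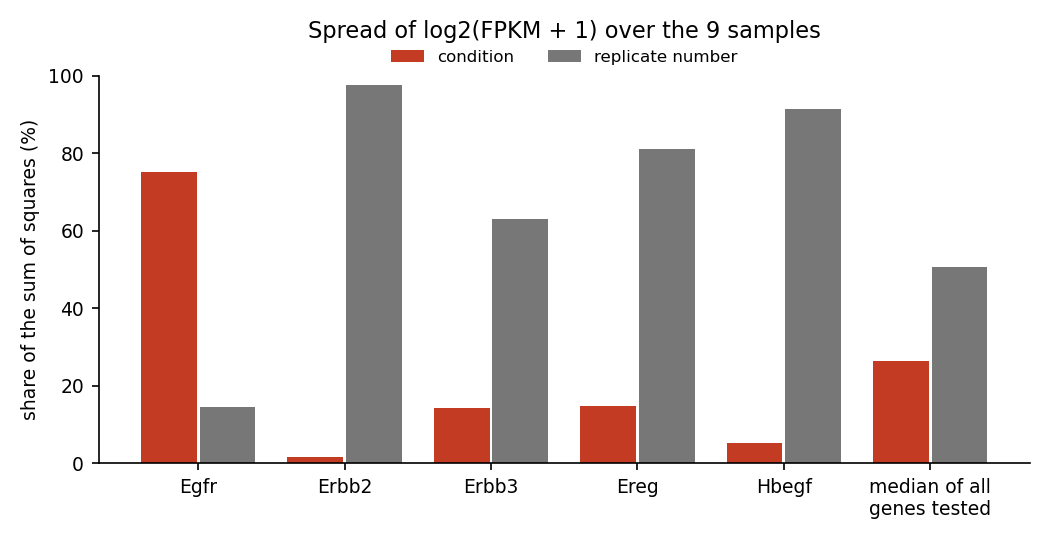
Share (%) of the sum of squares of log2(FPKM + 1) over the 9 samples that went with condition (red bars) and with replicate number (grey bars), for the 5 tested members and as the median of all rows tested. Condition took the larger share for Egfr (75.2%), and replicate number for Erbb2 (97.6%), Hbegf (91.5%), Ereg (81%) and Erbb3 (62.9%).

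The rows whose pattern was closest to that of each member were found by the root mean square difference of centred log2(FPKM + 1) over the 9 samples, a description with no test. For Egfr, whose own root mean square was 0.0828, they were Lats1, a kinase of the Hippo pathway (0.0252), Exoc6b, of the exocyst (0.0307), and Ddx17, an RNA helicase (0.0321). For Ereg (own value 0.35) they were Atp10a (0.0652), the kinase Plk2 (0.0933) and Myc (0.0983). For Hbegf (own value 0.349) they were Atf5 (0.0521), Psph, an enzyme of serine synthesis (0.0532), and Asns, the asparagine synthetase (0.0693). For Erbb2 (own value 0.0639) they were Ik (0.0216), Vcp (0.0251) and Gfod1 (0.0252), and for Erbb3 (own value 0.0881) 1300018J18Rik (0.0435), Unc45a (0.0466) and Ppp4r1 (0.0467).

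The other genes of the pathway are given by lists, each with its counts in the comparison of E2 with DMSO. Over all rows 10.4% were called higher and 4.63% lower with the block. Without the block 56 of the 11339 rows were called higher and 2 lower. Of the 5 further ligands Egf (0.171 to 0.303 FPKM), Nrg2 (listed at 0 in all samples) and Nrg3 (at most 0.0203 FPKM) were too low to test. Nrg1, a neuregulin that binds ErbB3 and ErbB4, lay above every family member at 65.3 to 86.7 FPKM. It was lower with E2, at 71.3 ± 5.42 against 81.9 ± 5.70 FPKM (SD, n = 3), and its log2 fold change of -0.20 passed with the replicate block alone (limma adjusted p = 0.00979, without the block 0.416). With the block it passed in 7 of 9 leave-one-out fits, and not without DMSO replicate 2 or DMSO replicate 3. Nrg4 (2.80 to 3.63 FPKM) did not pass.

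Of the genes that process the ligands 9 of 10 were tested, and with the block 2 rose and 1 fell, with a median log2 fold change of 0.03 beside -0.003 over all rows. Adam10 (33.0 to 41.8 FPKM) and Adam17 (10.97 to 13.7 FPKM), the main sheddases of the family, did not pass. Rhbdl2, a rhomboid protease that cuts EGF, rose by 0.68 on the log2 scale (limma adjusted p = 0.00319 with the block, 0.0504 without) and Adam9 by 0.26 (0.00397 and 0.271). Rhbdf2, which carries Adam17 to the surface, fell by 0.16 (adjusted p = 0.0419 with the block), and passed in 1 of 9 leave-one-out fits. Of the adaptors and proximal kinases 24 of 25 were tested, 5 rose and none fell with the block, and the median was 0.04. Gab2, a docking protein (0.56), Pik3r1, the regulatory subunit of PI 3-kinase (0.39) and Map2k1 (0.18) were among those that rose, with limma adjusted p of 0.00135, 0.00373 and 0.0341 with the block. None passed without it, and Map2k1 passed in 0 of the 9 leave-one-out fits with it.

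Of the inhibitors of the receptors and the pathway 17 of 18 were tested, and their median was 0.01. Without the block 1 rose and none fell, and with it 2 rose, 1 fell and 14 did not pass. Errfi1, which binds and blocks the kinase of EGFR, rose in both fits. It averaged 59.1 ± 4.86 FPKM with DMSO, 93.1 ± 3.12 FPKM with E2 and 66.6 ± 2.89 FPKM with 4OHT (SD, n = 3), a log2 fold change of 0.65 (SE 0.067, limma adjusted p = 0.0122, with the block 0.00158). The DMSO samples were 63.3, 53.8 and 60.1 FPKM and the E2 samples 91.8, 90.9 and 96.7 FPKM, with no overlap. Without the block Errfi1 passed in 5 of the 9 leave-one-out fits, and with it in 9 of 9. With the block Spry2, an inhibitor of receptor signaling, rose by 0.25 (limma adjusted p = 0.0279) and Dusp6, a phosphatase of the ERK kinases, fell by 0.22 (0.0115). Spry2 passed in 3 of the 9 leave-one-out fits with the block, those without a 4OHT sample, and its adjusted p reached 0.124. Dusp6 passed in 6 of 9, and not without DMSO replicate 2, DMSO replicate 3 or E2 replicate 3.

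Of the genes known to respond to EGF 16 of 18 were tested. Without the block 3 rose and none fell, and with it 7 rose and 4 fell, with a median of -0.05. Ier3, an early response gene, averaged 99.7 ± 4.54 FPKM with DMSO and 164 ± 6.25 FPKM with E2 (SD, n = 3), and its log2 fold change of 0.71 passed in both fits (limma adjusted p = 0.00390, with the block 0.000467). Fos, of the AP-1 factor, rose by 1.28 (0.0422 and 0.000262), although without the block 0 of the 9 leave-one-out fits called it. Atf3, named after its values were seen as the other gene called without the block, rose by 0.48 (0.0122 and 0.00123). With the block Fosb rose by 0.62 (limma adjusted p = 0.00635) and Ccnd1, the cyclin D1 gene, fell by 0.54 (0.0117, and 0.0606 without DMSO replicate 3). In the comparison of 4OHT with DMSO no gene of any of these lists passed in either fit. The median of the EGF-responsive list was then 0.09, beside 0.03 over all rows (0.006 with upper-quartile scaling). A value above 0 was found for 16 of its 16 tested genes, and for 7123 of all 11339 rows. For E2 against DMSO it was found for 7 of the 16. The pairs were less uniform: Fos, Junb and Ier3 were higher with 4OHT in 3 of 3, but Jun, Ccnd1 and Klf10 in 1 of 3.

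**Figure D4:**
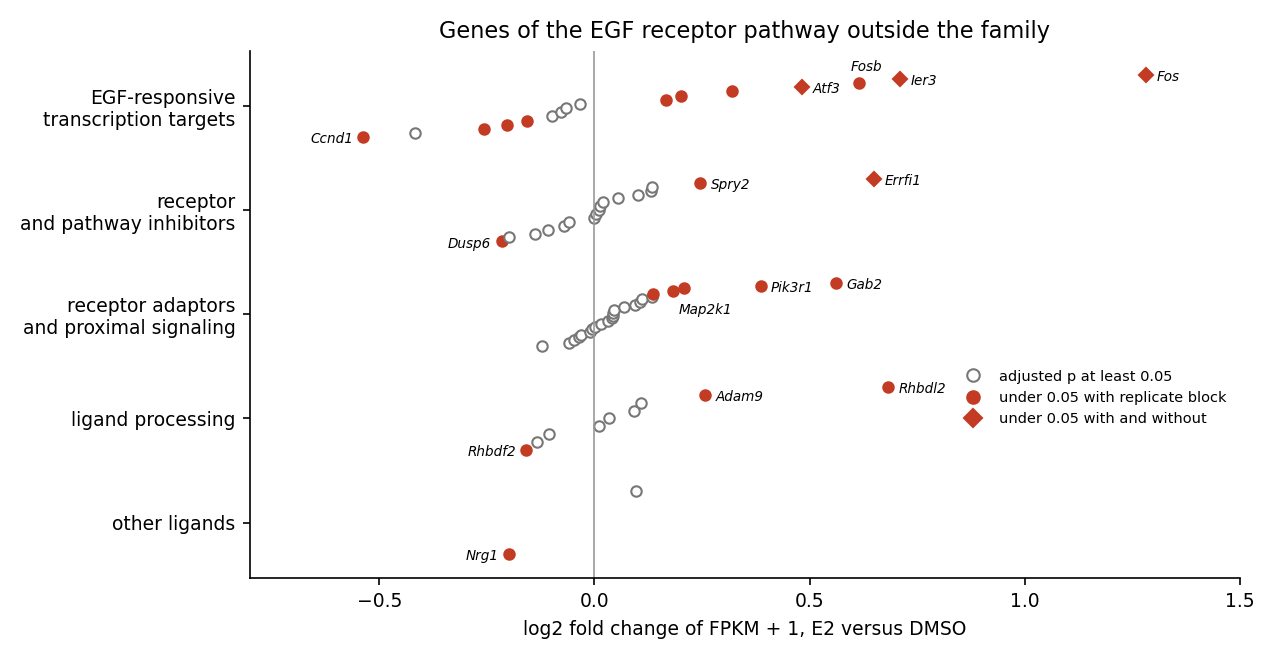
Log2 fold change of FPKM + 1 for E2 against DMSO (horizontal axis) of each tested gene outside the family, 1 row per pathway list; filled circles mark an adjusted p under 0.05 with the replicate block, diamonds with and without it, and open circles neither. Fos (1.28), Ier3 (0.71), Errfi1 (0.65) and Atf3 (0.48) are the diamonds, and Ccnd1 (-0.54) lies farthest to the left.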

How the data were processed

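RNA was read as RNAseq of 9 samples of 1 cell line, 3 for each condition. Per the labels, the authors aligned reads with TopHat2 2.0.8b to mm10 and computed FPKM with Cuffdiff 2.1.1; the deposited values are FPKM per gene and sample, with no counts and no interval. Genes were those of an annotation for mm10 that the authors took from UCSC. The read totals that the study lists were not used here, and depth was estimated from the FPKM that 1 read is worth in genes of low level.

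The values were fitted as log2(FPKM + 1) in limma 3.58.1 (R 4.3.3) over the 9 samples and 11339 rows with at least 1 FPKM in 3 samples, with a variance trend, 1 coefficient per condition and Benjamini-Hochberg adjustment over all rows of a comparison, at 0.05, two-sided. A fold change on this scale understates that of low genes. The study compared the conditions without pairing, so the replicate number was left out and entered as a block in an alternative. Deviations from the condition means of samples with the same number correlated at 0.523 to 0.828 over rows without an exact 0, and at 0.0527 to 0.293 over all tested rows (over 0.1 in 5 of 9 pairs), so the numbers were taken as pairing the samples and the blocked values are printed beside the results they change.

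The members and the pathway lists were chosen with earlier results of these data known. Genes named from a list were at most 4, taken by size of fold change for E2 against DMSO from those called with the block; 1 such gene is not reported here. Other settings were exact zeros taken as missing, a pseudocount of 0.1, no filter, upper-quartile scaling, the 6 samples compared alone, and each sample left out, some together with the block; the combinations with the block, apart from that with exact zeros missing, were chosen after seeing the data. The fit was tested on simulated data with changes larger than those of the members, so that test does not tell whether changes of their size would be found. Python 3.11.15 with numpy 2.4.6, pandas 2.3.3 and matplotlib 3.10.9 made the other values and plots.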

Additional observations from a re-analysis of the deposited data

How the results depend on the processing

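Without the replicate block 58 rows were called for E2 against DMSO, 0 for 4OHT against DMSO and 18 for E2 against 4OHT. With the block these were 1702, 0 and 1840. The numbers pair the samples as given with the processing. Taking exact zeros as missing gave 66, 0 and 37 rows, and with the block 2128, 22 and 2476. A pseudocount of 0.1 gave 48, 0 and 10, and no filter 32, 0 and 9. Upper-quartile scaling gave 46, 0 and 19, and the 6 samples alone 8, 3 and 7. With the block, no filter gave 1392, 0 and 1252, a pseudocount of 0.1 gave 1711, 0 and 1806, both together 1418, 0 and 1296, and upper-quartile scaling 1892, 0 and 2013. The split for E2 against DMSO was 1177 higher and 525 lower with the block, and 1103 and 789 with upper-quartile scaling besides.

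Leaving out each sample gave 8 to 50, 0 to 2 and 0 to 23 rows, and with the block 534 to 1328, 0 to 6 and 272 to 1513. Of the members, 1 (Ereg) was called for E2 against DMSO with the block and exact zeros as missing, or with the block and a pseudocount of 0.1, with or without the filter. For E2 against 4OHT, 1 (Egfr) was called in each of the fits with the block over the 9 samples, and 0 to 2 in those that left out a sample, with Ereg passing without DMSO replicate 2 (adjusted p = 0.0478, limma). No member was called for 4OHT against DMSO in any fit.

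Over 31 single-gene results and 29 alternatives each, 697 values kept direction and side, 162 passed only in the alternative, 20 only without it and 20 turned direction, all 20 with a sample left out. Over these fits the log2 fold change for E2 against DMSO ran from -0.046 to 0.029 for Erbb2 and from -0.29 to 0.19 for Hbegf, and for Ereg, with no change of direction, from -0.54 to -0.05. For 4OHT against DMSO it ran from -0.059 to 0.026 for Erbb2, -0.045 to 0.083 for Erbb3, -0.28 to 0.20 for Ereg and -0.11 to 0.38 for Hbegf, and for E2 against 4OHT from -0.034 to 0.051 for Erbb2 and -0.40 to 0.029 for Hbegf. The cause of these changes was not tested. Apart from Atf3, the list genes among the 31 results were chosen for passing with the block. Their passes in fits with the block, counted in the 162, follow in part from that choice. The ligands under 1 FPKM rest on few reads, and depth was not tested as a cause.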
